A study of Mus musculus with 12 samples.

Results

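The aquaporin genes Aqp1, Aqp2, Aqp3, Aqp4, Aqp5, Aqp6, Aqp7, Aqp8 and Aqp11 and the vasopressin V2 receptor gene Avpr2 were followed across 4 groups of mouse kidneys, and each was taken by its gene symbol, so that they are 10 of the 24421 symbols measured by RNA-seq. Whole kidneys of 6-week-old male mice (C57BL/6 in the labels, from breeders on the C57BL/6J background) gave 12 libraries, 3 in each group. WT baseline and Tet2-/- baseline mice were healthy, unoperated controls, and WT IR and Tet2-/- IR mice were taken 24 h after 60 min of ischemia of the right kidney. Tet2-/- mice were bred as germline knockouts of Tet2, an enzyme that oxidizes methylated cytosine in DNA. The left kidney of the IR mice had been removed, so differences between IR and baseline include the surgery and the loss of a kidney, and no sham group was sequenced. Libraries were compared as single mice, and each p-value measures only the spread between these 12 libraries.

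Aquaporins are membrane channels that let water cross cells, and some of them also pass glycerol or other small solutes. In the proximal tubule, which takes back most of the filtered water, Aqp1 sits on both faces of the cell. In the principal cells of the collecting duct, vasopressin binds the V2 receptor on the blood side, cAMP rises, and vesicles carrying Aqp2 fuse with the urine side, while water leaves the cell through Aqp3 and Aqp4. The same signal raises transcription of the Aqp2 gene. DNA methylation and protein were not measured in these samples.

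In these data the proximal tubule water channels Aqp1 and Aqp11 had lower mRNA levels after IR in the libraries labelled Tet2-/- and not in WT libraries, and the test of the difference between these IR effects passed for both. Aqp1 was 5.67-fold lower and Aqp11 3.02-fold lower after IR in the libraries labelled Tet2-/-. Aqp4 and Aqp6 were also called lower there, and Aqp8, a channel of low level, was called higher after IR in WT libraries. Aqp2, the vasopressin-regulated channel, and its receptor Avpr2 were called in none of the comparisons by edgeR with all libraries. Before IR edgeR called no gene of the 10 between the genotypes, while DESeq2 called Aqp5.

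Tet2 itself was checked first. Its level, in FPKM (fragments per kilobase of transcript normalized to sequencing depth, as deposited), was 9.15, 6.25 and 7.33 in WT baseline replicates 1, 2 and 3 and 9.24, 16.6 and 10.3 in the baseline libraries labelled Tet2-/-. After IR it was 9.34, 3.97 and 3.86 in WT libraries and 2.64, 3.20 and 1.76 in those labelled Tet2-/-. The transcript was thus not lower at baseline in the group labelled as knockout, and how much of it a deletion removes is not stated in the sources used here. All directions between genotypes are those of the labels.

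Total counts per library ran from 51007366 to 107969888 over 1 transcript per gene. Markers of the kidney tubule were present in every library, and those of pancreas, skeletal muscle and adrenal cortex summed to at most 2.03 FPKM. The adipocyte hormone gene Adipoq was at 3.01 FPKM in WT baseline replicate 2, 15.6 in WT baseline replicate 3 and 10.01 in Tet2-/- IR replicate 3, against at most 0.273 in the other 9 libraries. The sum of 8 endothelial markers was 18.0 FPKM in WT IR replicate 3 and from 59.6 to 213 in the other libraries. Values without the 3 libraries with Adipoq are given below where a call of the 10 genes changed.

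The counts were tested with edgeR's quasi-likelihood test, and calls needed a log2 fold change beyond 1 in either direction with an adjusted p (over all genes tested) below 0.05, or that p alone for the difference between IR effects. All 10 genes passed the filter on low counts in each comparison. The IR effect in WT libraries called 1 of the 10 higher and 0 lower, beside 1.46% higher and 0.887% lower among 16015 genes tested. In the libraries labelled Tet2-/-, IR called 0 higher and 4 lower, beside 12.7% and 11.6% of 16359 genes. At baseline, the genotypes differed by call in 0 of the 10 (edgeR), beside 0.0124% higher and 0.0% lower of 16086 genes, while 3 of the 10 and 1891 of all genes had an unadjusted p under 0.05. DESeq2 called 1 of the 10, Aqp5, and 23 genes higher and 297 lower over all. After IR, 0 were called higher and 2 lower in the libraries labelled Tet2-/-, beside 2.3% and 3.85% of 16186 genes. The difference between the IR effects of the genotypes was called in 0 genes upward and 3 downward, beside 3.79% and 5.39% of 16741 genes.

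After IR all 10 fitted log2 fold changes of the libraries labelled Tet2-/- against WT were negative, with a median of −1.34 over the 10 genes and 0.04 over all genes tested. That of Aqp5 ranged from −1.42 to 1.87 when 1 library was left out. The medians over the 10 were −0.27 for IR in WT libraries, −0.73 for IR in the libraries labelled Tet2-/- and −0.17 for the genotypes at baseline, against −0.03, 0.04 and 0.00402 over all genes. These comparisons share libraries, so their directions are not independent of each other. In a whole kidney, fewer cells of a type and less RNA per cell cannot be told apart.

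**Figure D1:**
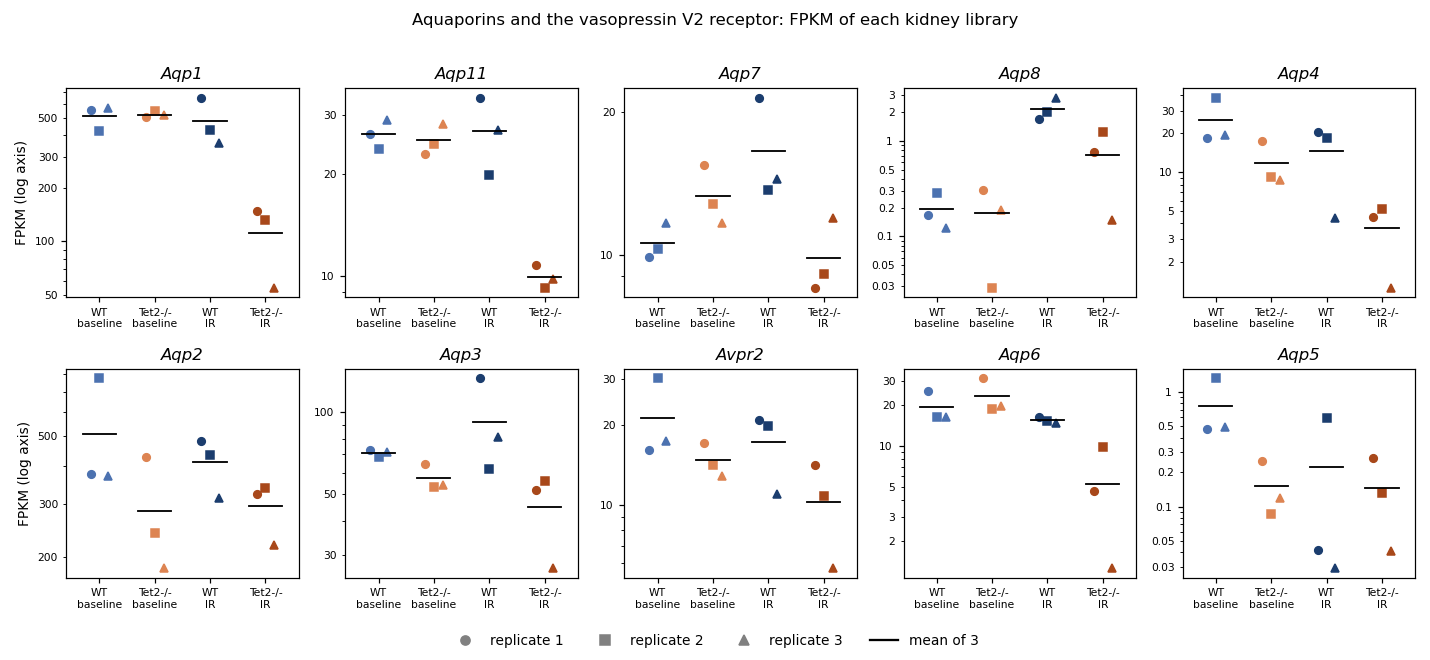
FPKM on log axes of the 10 genes in each of the 12 kidney libraries, with symbols for replicates 1, 2 and 3 of 4 groups and a line at each group's mean. Aqp1 sits between 362 and 649 in 9 libraries and between 54.7 and 148 in the Tet2-/- IR libraries, while the groups overlap for Aqp2.

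Aqp1 (NM_007472), the main water channel of the proximal tubule, is encoded on chromosome 6 (mm9, 55286293 to 55298549, plus strand). Its level was 556, 420 and 571 FPKM in WT baseline replicates 1, 2 and 3 and 504, 544 and 518 FPKM in the baseline libraries labelled Tet2-/-. The IR libraries had 649, 428 and 362 FPKM in WT libraries and 148, 132 and 54.7 FPKM in libraries labelled Tet2-/-. The Tet2-/- IR libraries lay apart from the other 9, below all of them, and the 3 other groups overlapped. IR moved Aqp1 by −2.50 on the log2 scale in the libraries labelled Tet2-/- (standard error 0.35, adjusted p = 0.00135, edgeR), while the fitted value in WT libraries was −0.18 (95% confidence interval −0.76 to 0.40, adjusted p = 0.707, edgeR). The IR effects differed by −2.28 (standard error 0.45, adjusted p = 0.0126, edgeR). The genotypes differed after IR by −2.21 (standard error 0.39, adjusted p = 0.0217, edgeR), and at baseline it was 0.11 (95% confidence interval −0.29 to 0.51).

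The call of Aqp1 between the genotypes after IR was lost when WT IR replicate 1 (adjusted p = 0.0665, log2 fold change −1.96), WT IR replicate 3 (0.0520, −2.34), Tet2-/- IR replicate 1 (0.0508, −2.49) or Tet2-/- IR replicate 2 (0.0563, −2.30) was left out (edgeR). Without the 3 libraries with Adipoq, the difference between IR effects was −1.92 (adjusted p = 0.0766, edgeR) and was not called, with WT baseline replicate 1 alone in its group.

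Aqp11 (NM_175105) encodes a channel of the endoplasmic reticulum of proximal tubule cells, whose loss in mice gives cystic kidneys. It lies on chromosome 7 from 104874889 to 104886757 on the minus strand. Its level was 26.3, 23.7 and 28.9 FPKM in WT baseline libraries and 22.9, 24.5 and 28.2 FPKM in baseline libraries labelled Tet2-/-. In IR-insulted kidneys the level was 33.7, 19.99 and 27.0 FPKM in WT libraries and 10.8, 9.26 and 9.84 FPKM in libraries labelled Tet2-/-. As for Aqp1, the 3 Tet2-/- IR libraries were below the other 9, and they were close to each other, with a mean of 9.97 ± 0.793 FPKM (SD, n = 3). With IR the fold change on the log2 scale came to −1.60 in the libraries labelled Tet2-/- (standard error 0.15, adjusted p = 0.000321, edgeR) and to −0.031 in WT libraries (95% confidence interval −0.52 to 0.46, adjusted p = 0.946, edgeR). The difference between these effects was −1.52 (standard error 0.27, adjusted p = 0.00878, edgeR), and the log2 fold change between the genotypes after IR was −1.53 (standard error 0.22, adjusted p = 0.0146, edgeR). Each of these 3 calls held with every single library left out. Only without all 3 libraries with Adipoq did Aqp11 lose a call, that of the difference between IR effects (−1.61, adjusted p = 0.0896, edgeR).

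Aqp7 (NM_007473), an aquaglyceroporin of the last part of the proximal tubule that takes back glycerol, and a channel of fat cells as well, lies on chromosome 4 from 40980107 to 40995169 on the minus strand. Its level was 9.88, 10.3 and 11.7 FPKM in WT baseline libraries and 15.5, 12.8 and 11.7 FPKM in baseline libraries labelled Tet2-/-. After IR it was 21.5, 13.7 and 14.5 FPKM in WT libraries and 8.52, 9.09 and 11.9 FPKM in libraries labelled Tet2-/-. IR libraries were thus all above baseline in WT, and overlapped with baseline in the libraries labelled Tet2-/-. The log2 fold change with IR was 0.57 in WT libraries (adjusted p = 0.137, edgeR) and −0.68 in libraries labelled Tet2-/- (adjusted p = 0.0232, edgeR), the latter under the fold change threshold. The difference between these effects, −1.21, was called (standard error 0.28, adjusted p = 0.0262, edgeR). It was no longer called without WT baseline replicate 1 (−1.16, adjusted p = 0.0561), Tet2-/- baseline replicate 1 (−1.10, 0.0608), WT IR replicate 1 (−1.02, 0.0595) or Tet2-/- IR replicate 1 (−1.12, 0.0567), and without the 3 libraries with Adipoq (−1.58, 0.0734, edgeR). Tet2-/- IR replicate 3, which had Adipoq, had the highest Aqp7 level of its group, and the part of fat tissue in that value was not tested.

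Aqp8 (NM_007474), a channel also found in mitochondria of proximal tubule cells, lies on chromosome 7 from 130605808 to 130611517 on the plus strand and was among the 2 lowest of the 10 genes at baseline. Its level was 0.166, 0.287 and 0.123 FPKM in WT baseline libraries (from 17.0 to 42.0 counts) and 0.307, 0.029 and 0.187 FPKM in baseline libraries labelled Tet2-/- (from 6.5 to 34.0 counts). The IR libraries had 1.69, 2.01 and 2.82 FPKM in WT libraries and 0.762, 1.23 and 0.150 FPKM in libraries labelled Tet2-/-. All 3 WT IR libraries lay above the other 9. Aqp8 was 10.9-fold higher after IR in WT libraries (log2 fold change 3.44, standard error 0.42, adjusted p = 0.0135, edgeR). In libraries labelled Tet2-/- the log2 fold change with IR was 1.79 (95% confidence interval −0.33 to 3.91, adjusted p = 0.149, edgeR), and the difference between the effects, −1.62, was not called (adjusted p = 0.362, edgeR). With 1 library left out, the first ranged from 1.24 (without Tet2-/- baseline replicate 2, and likewise without Tet2-/- IR replicate 2) to 2.46 (without Tet2-/- baseline replicate 1), and the second from −2.23 (without Tet2-/- IR replicate 2) to −0.93 (without Tet2-/- baseline replicate 1), none of them called. In WT libraries Aqp8 was no longer called without replicate 1 of the WT baseline group (adjusted p = 0.0675), WT baseline replicate 3 (0.0542) or WT IR replicate 2 (0.0507), with log2 fold changes of 3.36, 3.21 and 3.55, and without both WT baseline libraries with Adipoq (3.62, 0.270, edgeR).

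**Figure D2:**
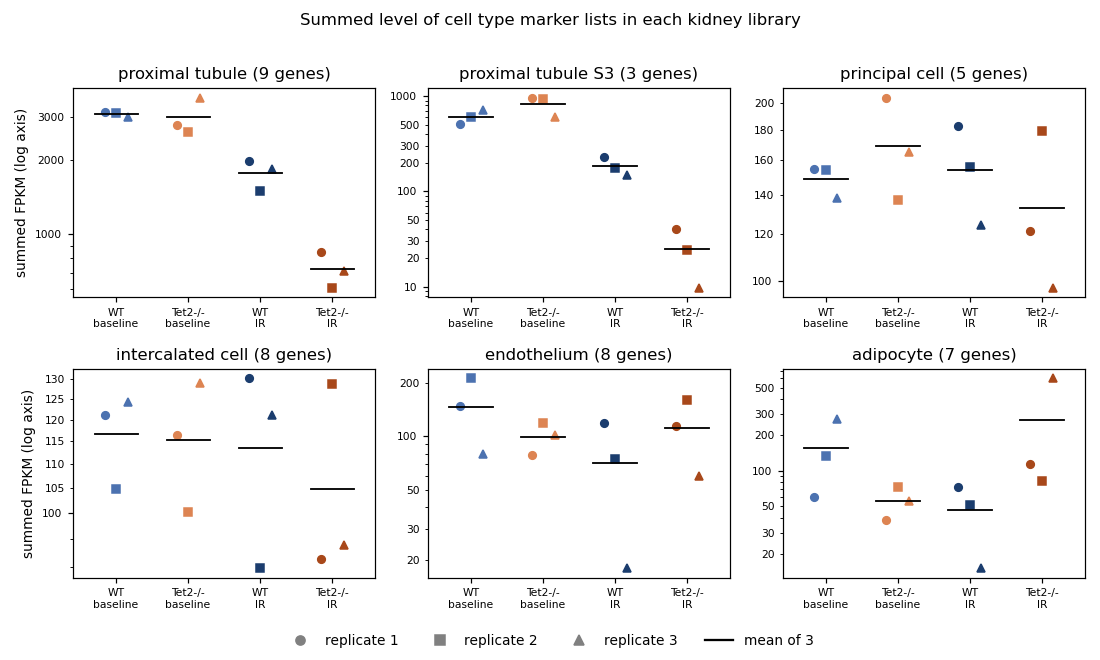
Summed FPKM on log axes of marker lists of proximal tubule, its S3 segment, principal cells, intercalated cells, endothelium and adipocytes in each library, with a line at each group's mean. The proximal tubule sums lie lower in WT IR than at baseline and lower again in Tet2-/- IR, between 607 and 850, while those of principal and intercalated cells overlap between all groups.

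Markers of the proximal tubule moved with Aqp1 and Aqp11, in part. The sum of 9 proximal tubule markers, most of it at baseline from the phosphate transporter gene Slc34a1 and the inositol oxygenase gene Miox, was from 2585 to 3571 FPKM in the 6 baseline libraries, from 1494 to 1990 in WT IR libraries and from 607 to 850 in Tet2-/- IR libraries. All 9 had a mean of at least 1 FPKM, and none was at 0 in all libraries. For 3 markers of the S3 segment, the sums were from 506 to 962 at baseline, from 149 to 233 in WT IR libraries and from 9.77 to 40.6 in Tet2-/- IR libraries. The WT IR libraries thus lay below baseline in both sums, while their Aqp1 and Aqp11 levels overlapped with baseline. In the larger sum this came from Slc34a1, with means of 1463 FPKM at WT baseline and 651 FPKM in WT IR libraries, and from Miox, with 904 and 276 FPKM. The other 7 markers were mixed. The transporter genes Slc22a6 (242 and 403 FPKM) and Slc13a3 (154 and 228 FPKM) were higher in each WT IR library than in any WT baseline library. So were 18.9% of all genes tested between WT IR and WT baseline. The endocytic receptor genes Lrp2 and Cubn overlapped between these groups, as did Slc5a2 (103 and 54.9 FPKM), Slc5a12 (31.7 and 16.5 FPKM) and Slc22a8 (60.6 and 41.0 FPKM), whose means were lower in WT IR libraries. Between the genotypes after IR, 4 of the 9 proximal tubule markers (Cubn, Lrp2, Slc13a3 and Slc34a1) and all 3 S3 markers were called lower by edgeR, beside 3.85% of all genes. Leaving out 1 library ended the call of Slc34a1 in 4 of 6 fits, of Slc13a3 in 1, and of the S3 markers Slc22a7 in 4 and Cyp7b1 in 3, with adjusted p between 0.0525 and 0.0929 (edgeR). The sum of 6 tubular injury markers, such as the injury molecule gene Havcr1, with most of it from Spp1, was from 219 to 515 FPKM at baseline, from 1647 to 7846 in WT IR libraries and from 11967 to 25904 in Tet2-/- IR libraries. Of these 6, 0 were called between the genotypes after IR (edgeR with all libraries), beside 2.3% higher and 3.85% lower of all genes. Alternatives called up to 5. The part of a loss of proximal tubule cells or of injury in the lower Aqp1 and Aqp11 levels was not tested.

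The 250 bases before the deposited start of Aqp1, Aqp11 and Aqp7, whose IR effects differed between the genotypes, and of Aqp2, for which no difference was called, are shown for their CpG dinucleotides, the sites at which Tet2 acts on DNA. They were read from the mm9 genome along the strand of the gene, and capitals mark each CG.
Aqp1 promoter (chr6:55286043-55286292, plus strand): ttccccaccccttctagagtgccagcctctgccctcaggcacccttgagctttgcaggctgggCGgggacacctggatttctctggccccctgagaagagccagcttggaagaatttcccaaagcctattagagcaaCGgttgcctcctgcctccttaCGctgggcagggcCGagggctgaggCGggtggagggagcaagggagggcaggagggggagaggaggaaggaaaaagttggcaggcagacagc
Aqp11 promoter (chr7:104886758-104887007, minus strand): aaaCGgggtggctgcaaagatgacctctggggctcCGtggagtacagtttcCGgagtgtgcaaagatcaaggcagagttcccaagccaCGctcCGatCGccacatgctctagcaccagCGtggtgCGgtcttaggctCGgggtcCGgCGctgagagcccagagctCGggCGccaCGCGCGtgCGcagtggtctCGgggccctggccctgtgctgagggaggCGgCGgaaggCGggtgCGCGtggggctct
Aqp7 promoter (chr4:40995170-40995419, minus strand): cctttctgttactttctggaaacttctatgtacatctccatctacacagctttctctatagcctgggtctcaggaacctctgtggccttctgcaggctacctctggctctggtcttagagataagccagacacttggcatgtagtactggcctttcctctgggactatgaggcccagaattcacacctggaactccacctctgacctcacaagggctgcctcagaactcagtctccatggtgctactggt
Aqp2 promoter (chr15:99409237-99409486, plus strand): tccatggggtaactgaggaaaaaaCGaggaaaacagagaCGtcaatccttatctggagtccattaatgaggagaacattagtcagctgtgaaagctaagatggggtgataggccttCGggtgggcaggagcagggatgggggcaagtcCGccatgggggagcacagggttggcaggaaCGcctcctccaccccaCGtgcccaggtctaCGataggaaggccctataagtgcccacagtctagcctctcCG
These windows hold 5, 23, 0 and 8 CG in that order, where the quartiles over the windows of all genes were 3, 9 and 19. The genes whose IR effects differed therefore span windows with no CG to windows with more than the upper quartile. Among the other genes read, Aqp5 had 38, Aqp3 14, Aqp8 5, Aqp6 4 and Avpr2 0. The letters AGATAA on either strand, bound by GATA factors, occur in the windows of Aqp2 and Aqp7 and in 8.92% of 24348 windows. TGACG, the core letters of a cAMP response element, occur once in the Aqp2 window, on the opposite strand, and in 20.2% of windows. TGAGTCA (AP-1) and CAAAGTCCA (HNF4) occur in none of the 9 windows read, against 3.97% and 0.415% of all windows.

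Aqp2 (NM_009699), the vasopressin-regulated channel of the urine side of principal cells, lies on chromosome 15 from 99409487 to 99414976 on the plus strand. Its level was 375, 775 and 371 FPKM in WT baseline libraries and 429, 240 and 184 FPKM in baseline libraries labelled Tet2-/-. In IR-insulted kidneys the level was 482, 435 and 314 FPKM in WT libraries and 324, 339 and 219 FPKM in libraries labelled Tet2-/-. The groups overlapped in each comparison, and the highest library, WT baseline replicate 2, was 2.09 times the lowest of its group. The log2 fold change with IR was −0.37 in WT libraries (95% confidence interval −1.10 to 0.36) and −0.21 in libraries labelled Tet2-/- (−0.93 to 0.51). Between the genotypes it was −0.75 at baseline (−1.67 to 0.16) and −0.58 after IR (−1.07 to −0.08, adjusted p = 0.125, edgeR). The intervals at baseline, after IR and with IR in WT libraries reach past −1 on the log2 scale, and the one after IR does not include 0, so a missed call does not show an equal level. Leaving out 1 library moved the baseline value between −1.14 and −0.31. The IR effect then ranged from −0.55 to 0.081 in WT libraries and from −0.44 to 0.19 in libraries labelled Tet2-/-. Since Aqp1 was lower, Aqp2 had the highest FPKM of the 10 genes in Tet2-/- IR libraries, where the lowest Aqp2 library, at 219, lay above the highest Aqp1 library, at 148. In the WT groups the ranges of Aqp1 and Aqp2 overlapped.

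Aqp3 (NM_016689), a channel for water and glycerol on the blood side of principal cells, lies on chromosome 4 from 41039757 to 41045216 on the minus strand, 44587 bases from Aqp7. Its level was 72.5, 68.3 and 71.5 FPKM in WT baseline libraries and 64.6, 53.2 and 54.1 FPKM in baseline libraries labelled Tet2-/-. After IR it was 133, 61.9 and 80.8 FPKM in WT libraries and 52.0, 55.8 and 26.9 FPKM in libraries labelled Tet2-/-. At baseline and after IR the ranges did not overlap, with WT the higher, and neither difference was called. The log2 fold changes were −0.22 at baseline (adjusted p = 0.488, edgeR) and −1.15 after IR (standard error 0.34, adjusted p = 0.0788, edgeR). After IR the difference was called with DESeq2 and with all 12 libraries in a single fit.

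Aqp4 (NM_001308647), the other water channel of the blood side of principal cells and also a channel of the brain and other tissues, lies on chromosome 18 from 15547903 to 15561525 on the minus strand. Its 8 transcripts had nearly the same counts, the lowest at 99.5% of the highest. Its level was 18.5, 37.9 and 19.3 FPKM in WT baseline libraries and 17.5, 9.10 and 8.64 FPKM in baseline libraries labelled Tet2-/-. The IR libraries had 20.7, 18.4 and 4.36 FPKM in WT libraries and 4.51, 5.16 and 1.26 FPKM in libraries labelled Tet2-/-. The Tet2-/- IR libraries lay below all baseline libraries, while WT IR replicate 3 fell among them. With IR, Aqp4 moved by −1.97 on the log2 scale in libraries labelled Tet2-/- (standard error 0.49, adjusted p = 0.0144, edgeR), a call lost without Tet2-/- baseline replicate 1 (−1.59, adjusted p = 0.0505, edgeR). In WT libraries it was −0.89 (adjusted p = 0.365, edgeR), and the difference between these effects, −1.04, was not called (95% confidence interval −2.78 to 0.70, adjusted p = 0.430, edgeR). Between the genotypes the log2 fold changes were −1.02 at baseline (adjusted p = 0.362) and −2.08 after IR (adjusted p = 0.0844, edgeR). Leaving out 1 library moved the baseline value between −1.39 and −0.60. The IR effect in WT libraries then ranged from −1.22 to −0.46, and the difference between IR effects from −1.51 to −0.65. After IR, Aqp4 was called with DESeq2 (adjusted p = 0.00321), with all 12 libraries in a single fit (0.0303) and with the replicate block (0.00866, edgeR).

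Avpr2 (NM_019404), the vasopressin V2 receptor, lies on chromosome X from 71137441 to 71139767 on the plus strand. It overlaps Arhgap4 on the opposite strand, whose mean level was between 1.32 and 2.98 FPKM in the 4 groups, and the strand setting of the counting is not stated, so a part of its reads may belong to Arhgap4. Avpr2 was at 16.1, 30.0 and 17.4 FPKM in WT baseline libraries and 17.1, 14.2 and 12.8 FPKM in baseline libraries labelled Tet2-/-. After IR it was at 21.0, 19.9 and 11.0 FPKM in WT libraries and 14.1, 10.8 and 5.76 FPKM in libraries labelled Tet2-/-. The groups overlapped in every comparison. The log2 fold change with IR was −0.37 in WT libraries (adjusted p = 0.490) and −0.79 in libraries labelled Tet2-/- (adjusted p = 0.0548, edgeR). It was −0.85 between the genotypes after IR (adjusted p = 0.144, edgeR). Without Tet2-/- IR replicate 1, the value for IR in libraries labelled Tet2-/- was −1.13 and was called (adjusted p = 0.0131, edgeR). The value for IR in WT libraries ranged from −0.53 to −0.017 with 1 library left out. Across the 12 libraries, Avpr2 and Aqp4 followed each other closely in log2(FPKM + 1), with a Pearson correlation of 0.947 and of 0.924 for the deviations from the group means. For Aqp2 and Avpr2 these were 0.799 and 0.822, and for Aqp2 and Aqp4 0.741 and 0.826. WT baseline replicate 2 was the highest of the 12 libraries for Aqp2, Aqp4 and Avpr2 alike, and Tet2-/- IR replicate 3 the lowest for Aqp4 and Avpr2.

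The summed level of principal cell markers overlapped between all 4 groups. The sum of 5 such markers (Fxyd4, Hsd11b2 and the sodium channel subunits Scnn1a, Scnn1b and Scnn1g) was from 137 to 204 FPKM at baseline, from 124 to 183 in WT IR libraries and from 97.5 to 179 in Tet2-/- IR libraries. Of the 5, Scnn1b (at least 14.9 FPKM) and Scnn1g (at least 10.7 FPKM) were higher in each WT IR library than in any WT baseline library (at most 14.5 and 10.5 FPKM), with neither called. Of all genes tested, 18.9% lay wholly above WT baseline in this way. Hsd11b2, the enzyme that guards the mineralocorticoid receptor, was called lower with IR in libraries labelled Tet2-/- (log2 fold change −1.04, adjusted p = 0.0136, edgeR), a call lost without Tet2-/- IR replicate 1 or 3 or Tet2-/- baseline replicate 3 (−0.94, −0.90 and −0.93, under the fold change threshold), with library sizes alone (−0.79) and with limma on log2(FPKM + 1) and log2(FPKM + 0.1) (−0.80 and −0.82). The other 4 were called in no comparison (edgeR with all libraries). In WT baseline replicate 2, which had the highest Aqp2 level, the marker sum was 154 FPKM, against 155 and 138 in the other 2 libraries.

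Aqp6 (NM_175087), a channel of vesicles in acid-secreting intercalated cells, lies on chromosome 15 from 99431831 to 99435908 on the plus strand, in a row with Aqp2 and Aqp5. Its level was 25.5, 16.2 and 16.5 FPKM in WT baseline libraries and 31.6, 18.7 and 19.7 FPKM in baseline libraries labelled Tet2-/-. In IR-insulted kidneys the level was 16.3, 15.3 and 14.8 FPKM in WT libraries and 4.65, 9.87 and 1.25 FPKM in libraries labelled Tet2-/-. The 3 Tet2-/- IR libraries lay below the other 9 and differed among themselves by a factor of 7.89. With IR, the log2 fold change was −2.45 in libraries labelled Tet2-/- (standard error 0.60, adjusted p = 0.0143, edgeR) and −0.39 in WT libraries (adjusted p = 0.281, edgeR). The difference between these effects was −2.03 (standard error 0.69) and was not called (adjusted p = 0.0864, edgeR). Neither was the log2 fold change of −1.71 between the genotypes after IR (adjusted p = 0.110, edgeR). These values turned on Tet2-/- IR replicates 2 and 3. Without replicate 2 they were −3.18, −2.83 and −2.46 for IR, the difference between effects and the genotypes after IR, and without replicate 3 they were −2.02, −1.58 and −1.27. The IR call held without either, the difference was then called (adjusted p = 0.0207 and 0.0407, edgeR), and the genotypes after IR were not. DESeq2 called both the difference (−2.10, adjusted p = 0.0172) and the genotypes after IR (−1.72, adjusted p = 0.0125), and a single fit of all 12 libraries called the latter (−1.71, adjusted p = 0.0351, edgeR).

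The sum of 8 intercalated cell markers was from 100.3 to 129 FPKM at baseline, from 89.8 to 130 in WT IR libraries and from 91.5 to 129 in Tet2-/- IR libraries. Of these, 2 were called lower with IR in libraries labelled Tet2-/-, beside 11.6% of all genes. They were Slc4a1, the anion exchanger of the acid-secreting type, with a log2 fold change of −3.27 (adjusted p = 0.00487), and the receptor gene Insrr with −1.84 (adjusted p = 0.0145, edgeR). Slc4a1 was also called lower between the genotypes after IR (−2.67, adjusted p = 0.0485, edgeR) and for the difference between IR effects (−2.58, adjusted p = 0.0393, edgeR). Most single libraries left out ended these 2 calls, with values from −2.83 to −2.28 after IR (adjusted p up to 0.130) and from −2.64 to −2.30 for the difference (up to 0.0912, edgeR). Both calls were also lost with library sizes alone (−2.51, adjusted p = 0.0647, and −2.39, 0.0581) and without libraries with Adipoq (−2.28, 0.0705, and −2.14, 0.168), and the first with transcripts summed per symbol (−2.69, 0.0511, edgeR).

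Aqp5 (NM_009701), best known from lung and salivary gland, lies between Aqp2 and Aqp6, 6482 and 6570 bases from them, on chromosome 15 from 99421459 to 99425260 on the plus strand. Its level was low in all libraries, at 0.473, 1.31 and 0.491 FPKM in WT baseline libraries and 0.251, 0.086 and 0.120 FPKM in baseline libraries labelled Tet2-/-. After IR it was 0.042, 0.590 and 0.029 FPKM in WT libraries and 0.263, 0.131 and 0.041 FPKM in libraries labelled Tet2-/-. At baseline the libraries labelled Tet2-/- (from 17.5 to 29.0 counts) lay below the WT libraries (from 64.0 to 201 counts), with a log2 fold change of −2.26 that was not called (standard error 0.57, adjusted p = 0.245, edgeR) but was with DESeq2 (−2.24, adjusted p = 0.00942). With IR in WT libraries the log2 fold change was −1.85 (adjusted p = 0.339, edgeR), which ranged from −1.21 without WT baseline replicate 2 to −4.40 without WT IR replicate 2 and was not called in either. With the replicate number as a block it was −2.61 and was called (adjusted p = 0.0426, edgeR), which made 2 genes called in that comparison, Aqp5 and Aqp8. Over all 16015 genes the block raised the calls there from 234 higher and 142 lower to 428 and 559.

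**Figure D3:**
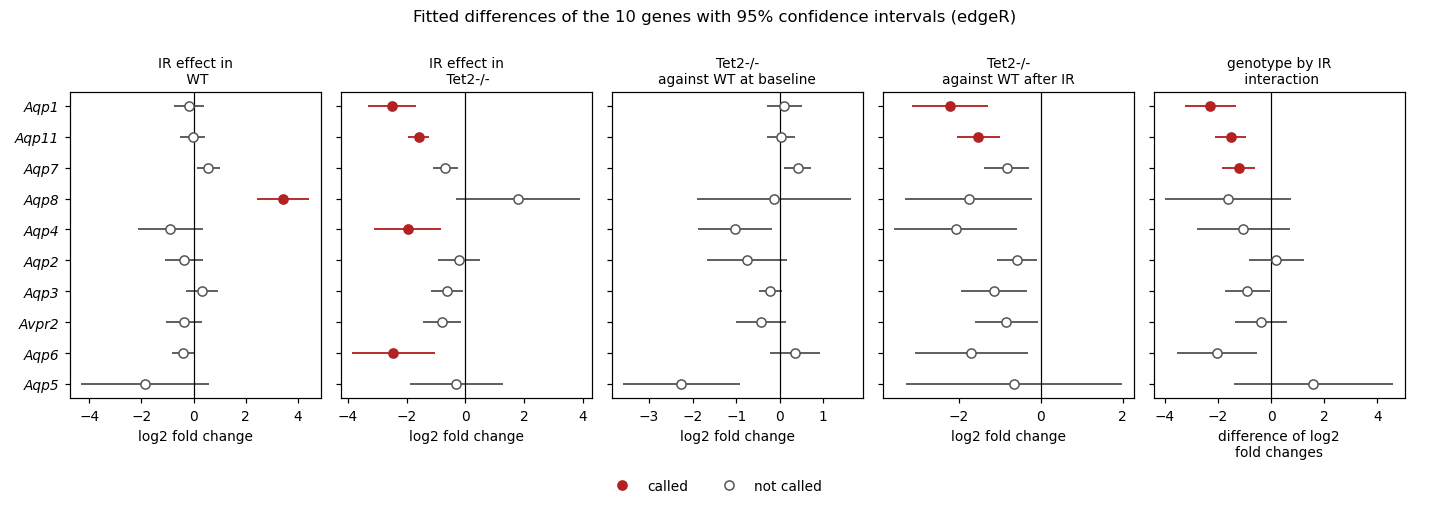
Fitted log2 fold changes of the 10 genes in the 5 comparisons with 95% confidence intervals from edgeR, where the axis of the last panel is the difference of the IR effects and filled red points are called. The points of the comparison after IR all lie below 0, from −0.58 for Aqp2 to −2.21 for Aqp1.

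In FPKM, the IR libraries of WT mice lay wholly above baseline for 2 of the 10 genes, Aqp7 and Aqp8, and wholly below for 0, beside 18.9% and 10.4% of all genes tested. For libraries labelled Tet2-/- these counts were 0 above and 4 below (Aqp1, Aqp4, Aqp6 and Aqp11), beside 40.5% and 17.9%. At baseline the libraries labelled Tet2-/- lay wholly above WT for 1 gene, Aqp7, and wholly below for 3 (Aqp3, Aqp4 and Aqp5), beside 3.06% and 16.5%. After IR they were above for 0 and below for 6 (Aqp1, Aqp3, Aqp6, Aqp7, Aqp8 and Aqp11), beside 22.0% and 14.6%. Of these 6, Aqp1 and Aqp11 were called.

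**Figure D4:**
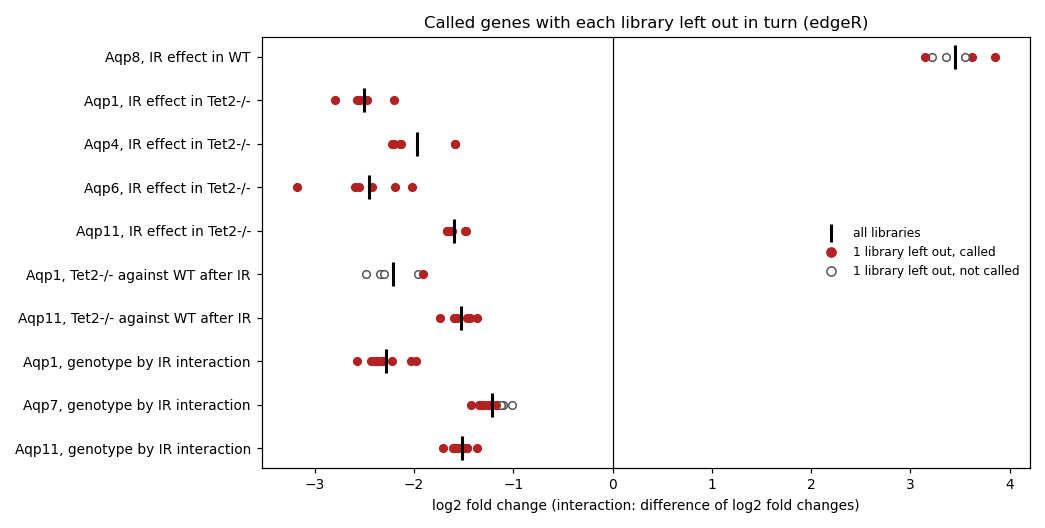
Log2 fold changes of each called gene with 1 library left out in turn (points, filled where still called) and with all libraries (vertical bars). All points keep the side of 0 of their bar, and all points of Aqp6 and Aqp11 and those of Aqp1 for the IR effect and the difference between IR effects stay called.

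The signalling that acts on Aqp2 was followed with lists of genes around it. Of 17 tested genes of vasopressin and cAMP signalling, 0 were called with IR in WT libraries, at baseline, after IR or for the difference between IR effects (edgeR with all libraries), where alternatives called up to 2. In these comparisons from 0.0124% to 3.79% of all genes were called higher and from 0.0% to 5.39% lower. With IR in libraries labelled Tet2-/-, 1 of the 17 was called higher and 0 lower, beside 12.7% and 11.6% of all genes. This was Prkar2a, a regulatory subunit of protein kinase A, at 2.31, 4.16 and 3.12 FPKM at baseline and 19.3, 15.1 and 13.95 FPKM after IR (log2 fold change 2.07, adjusted p = 0.000625, edgeR). With IR in libraries labelled Tet2-/-, 7054 of all 16359 genes had an adjusted p below 0.05, called genes included (edgeR). So did 4 of the other 16 genes of the list, with a change under the fold change threshold. The log2 fold changes were −0.77 for Gnas, the gene of the G protein that couples the receptor to adenylyl cyclase (adjusted p = 0.00591), −0.57 for the adenylyl cyclase gene Adcy6 (0.0381), 0.60 for Prkar1a (0.0138) and 0.47 for Prkacb (0.0266, edgeR), which encode subunits of protein kinase A.

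Of 22 genes of Aqp2 vesicle transport and turnover, 0 were called with IR in WT libraries, beside 1.46% higher and 0.887% lower of all genes. With IR in libraries labelled Tet2-/-, 2 of the 22 were called higher and 0 lower, beside 12.7% and 11.6% of all genes. They were Ezr (log2 fold change 1.16, adjusted p = 0.00249) and Msn (2.36, adjusted p = 9.47e-05, edgeR), which encode linkers of the membrane to actin found in many cell types. Msn was at 20.4, 20.2 and 19.5 FPKM in baseline libraries labelled Tet2-/- and 122, 119 and 126 FPKM after IR, against 34.5, 63.5 and 42.8 FPKM in WT IR libraries. It was the only gene of the list called between the genotypes after IR (1.30, adjusted p = 0.0229) and for the difference between IR effects (1.35, adjusted p = 0.0192, edgeR). The call after IR was lost without WT IR replicate 1 (1.11, adjusted p = 0.0682), WT IR replicate 3 (1.29, 0.0840), Tet2-/- IR replicate 1 (1.30, 0.0667) or Tet2-/- IR replicate 3 (1.22, 0.0546, edgeR). That of the difference was lost without Tet2-/- baseline replicate 3 (1.30, adjusted p = 0.0540) or the 3 libraries with Adipoq (1.46, 0.0848, edgeR). The sum of 7 neutrophil markers was from 75.1 to 133 FPKM in Tet2-/- IR libraries and from 0.609 to 9.44 FPKM in the other 9. That of 7 macrophage markers was from 53.4 to 185 FPKM and from 24.9 to 46.1 FPKM, where Lyz2 alone had 119.7 FPKM in the highest library, and Csf1r was called lower with IR in libraries labelled Tet2-/- (−2.69, adjusted p = 0.00124, edgeR). The part of these cells in the Msn level was not tested.

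None of 9 transcription factor genes linked to Aqp2 was called in any comparison by edgeR with all libraries, and alternatives called up to 1 with IR. Of all genes, 1.46% were called higher and 0.887% lower with IR in WT libraries, and 12.7% and 11.6% in those labelled Tet2-/-. These shares were 0.0124% and 0.0% at baseline, 2.3% and 3.85% after IR, and 3.79% and 5.39% for the difference between IR effects. Among 12 transport and osmolyte genes used to concentrate urine, 0 were called higher and 2 lower with IR in libraries labelled Tet2-/-, beside 12.7% and 11.6% of all genes, and 0 in the other comparisons (edgeR with all libraries), where single alternatives called up to 2. The genes called were Slc12a1, the sodium, potassium and chloride cotransporter of the thick ascending limb (−2.05, adjusted p = 0.00455), and Bsnd, a chloride channel subunit (−1.35, adjusted p = 0.00907, edgeR). Slc12a1 was at 157, 152 and 106 FPKM at baseline and 56.6, 46.0 and 18.3 FPKM after IR in libraries labelled Tet2-/-. Umod, the uromodulin gene of the same segment, was at 2018, 2512 and 354 FPKM in Tet2-/- IR replicates 1, 2 and 3, so replicate 3 was the lowest of its group for it as well as for Aqp1, Aqp2, Aqp3, Aqp4, Aqp5, Aqp6, Aqp8 and Avpr2.

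Of the other aquaporin genes, Aqp9, a channel of liver and white blood cells, was at 0.005, 0.017 and 0.015 FPKM in baseline libraries labelled Tet2-/- and 0.076, 0.160 and 0.053 FPKM after IR. It passed the filter on low counts only in comparisons with the Tet2-/- IR libraries, where it was at its highest, so no call is read from it. Mip and Aqp12 did not pass the filter on low counts.

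The genes with the pattern most like 8 of the 10 were ranked by the Pearson correlation of log2(FPKM + 1) over the 12 libraries, among 12212 genes with a mean of at least 1 FPKM. Aqp5 and Aqp8 had means of 0.319 and 0.813 FPKM and were left out. For Aqp1 these were Csad (0.984), Cxcl12 (0.982) and Hgd (0.982), and for Aqp11 Slc25a21 (0.979), 0610043K17Rik (0.978) and the amino acid transporter gene Slc3a1 (0.976). Those of Aqp2 were Mras (0.918), Upk3b (0.894) and Stard13 (0.890). Those of Aqp4 included Zfp213 (0.965) and Avpr2 (0.947), and those of Avpr2 included Aqp4 and Zfp213 (0.930). Aqp6 was followed by Ift172 (0.967), Aqp3 by Cbr2 (0.904) and Aqp7 by Rhot2 (0.927). Within the 10, Aqp1 and Aqp11 had a correlation of 0.928, which was 0.378 for the deviations from the group means, so most of it came from the differences between groups. These correlations share libraries and depth and are descriptions.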

How the data were processed

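RNA-seq libraries from 12 mouse kidneys (4 groups of 3, grouped by the labels) were used. The authors used STAR for alignment to mm9 and HOMER for counting over RefSeq transcripts (versions not given in the sources used here). They deposited expected counts without normalization (steps of 0.5, 38.7% not whole), which were rounded here, and FPKM, used for levels. The files hold 34600 transcripts, and for each of 24421 symbols the transcript with the highest total was used. The genes and lists were chosen with earlier results of these data known. The text names the 10 genes, Tet2, called or highly expressed list genes and the genes most like each.

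Counts were fitted in R 4.3.3 with edgeR 4.0.16 (TMM, filterByExpr, quasi-likelihood F test, Benjamini-Hochberg over all genes), using the 6 libraries of each comparison, or 12 for the difference between IR effects. Alternatives were DESeq2 1.42.0, other scaling and filters, limma 3.58.1 on log2(FPKM + 1) and log2(FPKM + 0.1), summed transcripts, a single fit, a replicate block and each library left out. On simulated data (16015 genes, after IR, 197 of them set to a log2 change of 2), edgeR recovered 143 and called 10 others.

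Same-numbered WT libraries at baseline and after IR deviated together (correlations of 0.361, 0.275 and 0.280 over 12213 genes), which pairs them by number only, since they are different mice. In the other comparisons at least 1 pair was under 0.1. Figures were drawn with matplotlib 3.10.9. Some genes of these lists are not reported here.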

Additional observations from a re-analysis of the deposited data

Results flagged for a closer look

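The difference between the IR effects of the libraries labelled Tet2-/- and of WT libraries passed the test for 3 of the 10 genes (edgeR over 12 libraries). Of all 16741 genes tested, 3.79% passed it upward and 5.39% downward. For Aqp1 the difference was −2.28 on the log2 scale, with IR effects of −2.50 and −0.18. For Aqp11 it was −1.52, with IR effects of −1.60 and −0.031. For Aqp7 it was −1.21, with IR effects of −0.68 and 0.57, neither of which was called alone.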

How the results depend on the processing

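The 50 fold changes of the 10 genes in 5 comparisons were recomputed under the alternatives, which gave 893 values. Of these, 830 kept their direction and call, 16 lost and 16 gained a call, and 31 changed sign, none of them among the 185 values of the 10 called results. With 1 library left out, the number of genes called was 0 to 1 for IR in WT libraries and 1 to 2 between the genotypes after IR. Over all genes these fits called from 41 to 365 higher and from 37 to 183 lower for IR in WT libraries. After IR they called from 65 to 319 higher and from 229 to 623 lower. All libraries together gave 234 and 142, and 373 and 623. Same-numbered libraries are different mice in every comparison, so the replicate block rests on the number alone. It gave 2 genes (Aqp5 and Aqp8) for IR in WT libraries. Over all genes it gave 428 higher and 559 lower there, against 234 and 142 without it. In the others the block gave 4 genes for IR in libraries labelled Tet2-/-, 3 after IR and 4 for the difference between IR effects. Over all genes these came with 2137 higher and 2056 lower, 477 and 616, and 1024 and 1077. Without the block the counts over all genes were 2078 and 1896, 373 and 623, and 634 and 902. DESeq2 called 1 gene at baseline and 6 after IR, and a single fit of 12 libraries called 5 after IR. These came with more calls over all genes, as DESeq2 called 23 higher and 297 lower at baseline and 775 and 880 after IR, and the single fit 714 and 879 after IR, against 2 and 0 at baseline and 373 and 623 after IR with the test as reported. Leaving out the 3 libraries with Adipoq of at least 3 FPKM was an alternative chosen after seeing the data. It left WT baseline replicate 1 alone in its group, a library then assumed to vary like the other groups. The calls of the 10 genes for IR in WT libraries and for the difference between IR effects were lost there. So were nearly all calls over all genes in these 2 comparisons (edgeR). The log2 fold changes that turned sign there were those of Aqp2 (0.050) and Avpr2 (0.020) with IR in WT libraries, Aqp5 (0.11) with IR in libraries labelled Tet2-/-, Aqp6 (−0.034) and Aqp8 (0.068) at baseline, and Aqp2 (−0.14) for the difference between IR effects. With library sizes alone, limma on log2(FPKM + 1) and limma on log2(FPKM + 0.1), Aqp11 turned to 0.021, 0.00405 and 0.00324 with IR in WT libraries and to −0.039, −0.059 and −0.061 at baseline, and Aqp2 to 0.015, 0.12 and 0.12 with IR in libraries labelled Tet2-/-. A single fit gave Aqp11 −0.00144 at baseline. With 1 library left out, values that turned ranged, for IR in WT libraries, from −0.55 to 0.081 (Aqp2), −0.011 to 0.57 (Aqp3) and −0.19 to 0.20 (Aqp11). They ranged from −0.44 to 0.19 (Aqp2) and −1.09 to 0.20 (Aqp5) for IR in libraries labelled Tet2-/-, and from −0.020 to 0.20 (Aqp1), −0.80 to 0.43 (Aqp8) and −0.068 to 0.11 (Aqp11) at baseline. After IR Aqp5 ranged from −1.42 to 1.87, and for the difference between IR effects Aqp2 ranged from −0.29 to 0.61. The cause of these changes was not tested. Library sizes alone moved the median of all genes with IR in libraries labelled Tet2-/- from 0.04 to 0.27. Aqp5 had from 3.5 to 201 counts per library and Aqp8 from 6.5 to 327, which limits their precision.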
